A study of Mus musculus with 10 samples.

Results

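The genes described here are 10 genes of brain endothelial cells and of the blood-brain barrier, namely Cldn5, Pecam1, Flt1, Kdr, Tek, Cdh5, Slco1a4, Abcb1a, Ly6c1 and Esam. They were listed by name, and all 10 were found by symbol among the 53379 genes counted in each of 10 libraries. RNA-seq was performed on hippocampal cells of 5-week-old male mice, in which the c-Fos promoter drives the transactivator tTA and, in the absence of doxycycline, tTA drives ChR2-EYFP, so that cells active during an experience carry the label. The aversive group (neg in the labels, 2 libraries) was tagged during 4 foot shocks of 2 s and 1.5 mA. The appetitive group (pos, 2 libraries) was tagged during 1 h with a female mouse by the labels, whereas the methods give 2 h. The neutral group (neu, 3 libraries) was tagged in the conditioning cage with neither stimulus, and the mock group (3 libraries) came from home cage mice. EYFP cells were sorted from enzyme-dissociated tissue after removal of debris and red blood cells. The paper's results section speaks of nuclei instead of cells. By the labels 8 mice were pooled for a condition. The methods state that the sequencing was replicated but do not tie libraries to pools, so p-values measure the spread between libraries, which may be technical. The label text describes all mice, mock included, as carrying ChR2-YFP, whereas in the methods mock is an untagged control from 2 mice, fewer than its 3 libraries.

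Endothelial cells line the blood vessels, and in the brain they are sealed to each other by tight junctions and carry transporters that decide which molecules pass between blood and tissue. Growth of these vessels and their quiescence are set by receptor tyrosine kinases on the endothelial surface, which bind VEGF and angiopoietin ligands released by neighbouring cells. The 10 genes are used as markers of this vessel wall. In bulk libraries, fewer endothelial cells and less RNA per endothelial cell cannot be told apart. In these data Tek, the gene of the angiopoietin receptor, had 3 and 11 counts in the appetitive libraries and was called lower there than in each other group. In each of these comparisons the call was lost when any 1 mock library was left out. Kdr was also low in the appetitive libraries without passing the test, and the other 8 genes were not called in any comparison.

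Total counts ranged from 16968588 to 67650693 per library, and 3 counts, taken as the lowest level the depth can show, corresponded to 0.0346 to 0.235 CPM (counts scaled to a common library total with TMM factors). This floor covers counting error only. The 2 appetitive libraries had the fewest genes with at least 1 count, 14144 and 14658, against 16849 to 30899 in the others. By the labels, all neutral libraries were prepared with a kit named differently from that of the rest, though both follow the same SMART-Seq protocol, and they were read as 100-base pairs on a NovaSeq instead of 40-base single reads on a HiSeq, so the batch and the neutral experience cannot be told apart, and within-batch values for the neutral group do not exist. Summed over 10 neuronal markers, the level was 68.0 to 1228 CPM per library, and over 10 oligodendrocyte markers it was 7477 to 803806 CPM, so RNA of non-neuronal cells was present in every library.

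All 10 genes were detected in 9 of the 10 libraries, and in neutral replicate 1 Pecam1, Cdh5 and Abcb1a had 0 counts. The summed level of the 10 genes was 809.7, 4346 and 2289 CPM in mock replicates 1, 2 and 3, and 1406 and 1162 CPM in aversive replicates 1 and 3. It was 1823 and 219 CPM in appetitive replicates 1 and 2, and 132, 3757 and 1840 CPM in neutral replicates 1, 2 and 3. The 4 groups overlapped, and the means ± SD were 1021 ± 1134 CPM for appetitive (n = 2), 1284 ± 172 CPM for aversive (n = 2), 1909.8 ± 1814 CPM for neutral (n = 3) and 2482 ± 1776 CPM for mock libraries (n = 3). In all groups but the aversive one, whose 2 libraries differed 1.21-fold, libraries of a group differed more than group means did. The sum was 28.5-fold higher in neutral replicate 2 than in neutral replicate 1, 8.33-fold higher in appetitive replicate 1 than in appetitive replicate 2 and 5.37-fold higher in mock replicate 2 than in mock replicate 1. On library size alone, without TMM, the appetitive mean was 561 CPM. The TMM factors of appetitive replicates 1 and 2 were 0.480 and 1.126. In these libraries the 10 genes took 0.0875% and 0.0246% of all counts, so the fold between them depends on the scaling.

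**Figure D1:**
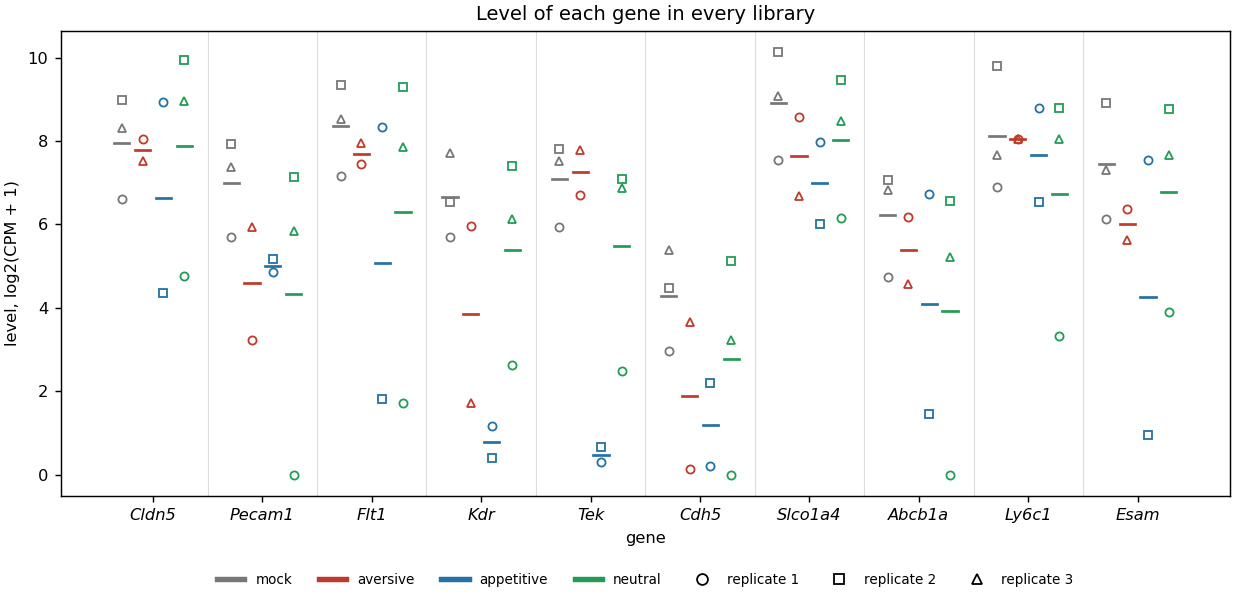
Level of each of the 10 genes, as log2(CPM + 1), in every library, with 1 colour for a group, 1 marker shape for a replicate number and a bar at the group mean. Tek and Kdr lie near the bottom of the axis in both appetitive libraries, and neutral replicate 1 is the lowest neutral library for every gene.

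The junction and adhesion genes were led by Cldn5, which encodes claudin-5, the main claudin of the tight junctions of brain endothelium. Cldn5 (chr16:18776847-18778262, plus strand; all positions are GRCm38) stood at 96.7, 503 and 315 CPM in mock, 265 and 182 CPM in aversive, 486 and 19.6 CPM in appetitive and 26.1, 981 and 500.3 CPM in neutral libraries, in the order of the replicates. Neutral held both its highest library and one of its 2 lowest, and the ranges of all groups overlapped.

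Cdh5 (chr8:104101625-104144511, plus strand), the cadherin of endothelial adherens junctions, was the lowest of the 10, at 6.77, 21.3 and 40.8 CPM in mock, 0.10 and 11.6 CPM in aversive, 0.16 and 3.56 CPM in appetitive and 0, 33.7 and 8.36 CPM in neutral libraries. Its count was at most 3 in aversive replicate 1, appetitive replicate 1 and neutral replicate 1. Both appetitive libraries lay below every mock library, and the ranges of the other groups overlapped.

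Pecam1 (chr11:106654217-106750628, minus strand), an adhesion molecule at endothelial cell contacts, stood at 50.6, 242 and 166 CPM in mock, 8.35 and 60.8 CPM in aversive, 27.9 and 34.9 CPM in appetitive and 0, 139 and 56.7 CPM in neutral libraries. Both appetitive libraries were below all mock libraries and inside the ranges of aversive and neutral. Esam (chr9:37528078-37538319, plus strand), another adhesion molecule of endothelial contacts, stood at 69.5, 484 and 156 CPM in mock, 82.0 and 48.5 CPM in aversive, 187 and 0.94 CPM in appetitive and 13.9, 438 and 201 CPM in neutral libraries. Its appetitive libraries lay above and below both aversive libraries.

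The barrier transporters are Slco1a4, an organic anion transporter, and Abcb1a, a P-glycoprotein that pumps drugs out of the endothelium. Slco1a4 (chr6:141805440-141856199, minus strand) stood at 187, 1116 and 537 CPM in mock, 378 and 102 CPM in aversive, 251 and 63.3 CPM in appetitive and 70.6, 699.7 and 357 CPM in neutral libraries, and never fell under 1210 counts. Abcb1a (chr5:8660077-8748575, plus strand) stood at 25.9, 132 and 113 CPM in mock, 71.3 and 23.0 CPM in aversive, 105 and 1.73 CPM in appetitive and 0, 94.1 and 36.2 CPM in neutral libraries. The groups overlapped for both transporters. Ly6c1 (chr15:75044018-75048830, minus strand), a GPI-anchored surface protein of brain endothelium and of some leukocytes, stood at 119, 882 and 201 CPM in mock, 263 and 265 CPM in aversive, 443 and 91.4 CPM in appetitive and 8.99, 440.4 and 265 CPM in neutral libraries, and its groups overlapped too.

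Abcb1a and Ly6c1 have near-identical neighbours, which bears on reads of 40 bases. Of all 40-base stretches in its annotated transcripts, Ly6c1 shares 40.1% with other genes, 26.4% of them all with Ly6c2, and Abcb1a shares 25.2%, 18.8% with Abcb1b. Slco1a4 shares 2.70%, Pecam1 2.10% and Flt1 0.134%, and Cldn5, Kdr, Tek, Cdh5 and Esam share 0%. The exons of Abcb1a also overlap those of Gm42686 on the other strand over 553 bases, and the counts were made without regard to strand. The coding sequences of Ly6c1 and Ly6c2 are 90.6% identical over 393 aligned bases, with a longest identical run of 188 bases, and those of Abcb1a and Abcb1b are 88.0% identical over 3819 bases, with a longest run of 338 bases. The 30-base coding windows in which each pair differs most (GENCODE M21, positions counted from the A of the start codon, capitals mark the differing bases) are shown because reads from such windows can be assigned to 1 gene, whereas reads from the identical runs cannot.
Ly6c1, bases 7 to 36: aCtTctcacActacaaagtcctgtGtgctC
Ly6c2, bases 7 to 36: aGtActcacGctacaaagtcctgtTtgctG
Abcb1a, bases 271 to 300: ATGagtgAGGccGaTaAAaGAGCCatGTtT
Abcb1b, bases 274 to 303: CAAagtgGACccAaCaGTaCTCTGatCAtC
These windows hold 5 and 18 differences. The paralogs themselves had low counts: Ly6c2 did not exceed 9.95 CPM in any library and Abcb1b did not exceed 20.9 CPM. Ly6a, an endothelial surface gene of the same family, ranged from 9.58 CPM in neutral replicate 1 to 805 CPM in mock replicate 2. The relatives of Slco1a4 were also low, with Slco1a1 at most 0.17, Slco1a6 at most 4.37 and Slco1a5 at most 30.6 CPM, the last in neutral replicate 1.

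The receptor genes were Flt1 and Kdr, which encode VEGF receptors, and Tek, which encodes the angiopoietin receptor TIE2. Flt1 (chr5:147561604-147726011, minus strand) stood at 143, 651 and 370 CPM in mock, 173 and 246 CPM in aversive, 322 and 2.51 CPM in appetitive and 2.29, 627 and 231 CPM in neutral libraries. The 2 appetitive libraries thus spanned the range of the aversive libraries.

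Tek (chr4:94739289-94874976, plus strand) stood at 60.5, 223 and 181 CPM in mock, 104 and 220.5 CPM in aversive, 0.23 and 0.58 CPM in appetitive and 4.59, 135 and 117 CPM in neutral libraries. The first of these appetitive levels was at the floor of 3 counts, whereas the other 8 libraries held 291 to 13147 counts. Both appetitive libraries lay below each of the other 8. Among the summed CPM of the 10 genes, Tek made up 0.0129% and 0.263% in the appetitive libraries and 3.48% to 18.97% in the others, so its level was also low relative to the sum of the 10 genes in the same libraries. It was not the lowest of them in each: Cdh5 was below it in appetitive replicate 1 and Kdr in appetitive replicate 2.

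Kdr (chr5:75932827-75978458, minus strand), the main signalling receptor for VEGF-A, stood at 50.9, 92.4 and 209 CPM in mock, 61.4 and 2.30 CPM in aversive, 1.25 and 0.31 CPM in appetitive and 5.17, 169 and 68.6 CPM in neutral libraries. The appetitive values rested on 16 and 6 counts. Both appetitive libraries lay below the other 8, of which aversive replicate 3 and neutral replicate 1 were the nearest.

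Among the 7 genes with a promoter in the RefSeq table (GRCm38.p6; none for Pecam1, Cdh5 and Esam), short motifs of endothelial transcription factor families were searched on both strands around the start site. The ETS core GGAAG was found in 5 of 7 genes, against 71.4% of 32851 promoters of all genes, the SOX core ACAAT in 2 of 7 against 31.0%, and the GATA core AGATAA in 1 of 7 against 11.2%. No match of one motif overlapped a match of another. The RefSeq promoter of Abcb1a (chr5:8566841-8567140), one of the 5 with the ETS core, lies upstream of the gene span given above and does not touch it. The shares are close to those of all promoters, and a match of 5 or 6 letters is a description only. Windows of 30 bases are shown for Tek and Flt1, the receptors with the lowest and the highest level in appetitive replicate 1, with the match in capitals and the strand of the gene, 5′ to 3′.
Tek, chr4:94739214-94739243, SOX core on the opposite strand: gaggatacccctATTGTtcctgaaaatgct
Tek, chr4:94739270-94739299, SOX core: tccctctgccccACAATccagttaaggcag
Flt1, chr5:147726122-147726151, ETS core: gcccctccgggaGGAAGaagagggtaggtg
Flt1, chr5:147726065-147726094, ETS core: cttgacgtcactGGAAGgaggtgccggggt
Flt1, chr5:147726046-147726075, ETS core: ggtgccggggtaGGAAGtgggctggggaaa

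Per kilobase of exon, which allows levels of different genes to be compared, Cldn5 (238 CPM per kb, mean over 10 libraries) and Ly6c1 (178) stood highest, followed by Slco1a4 and Esam (58.6 each), Tek (22.2), Flt1 (20.5), Pecam1 (12.6), Abcb1a (10.996), Kdr (7.31) and Cdh5 (3.004). Cldn5 made up 16.1% to 51.0% of the summed CPM per kb, and Ly6c1 13.0% to 63.7%. In both cases the extremes included appetitive replicate 2, where Ly6c1 was at its highest share and Cldn5 at its lowest.

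**Figure D2:**
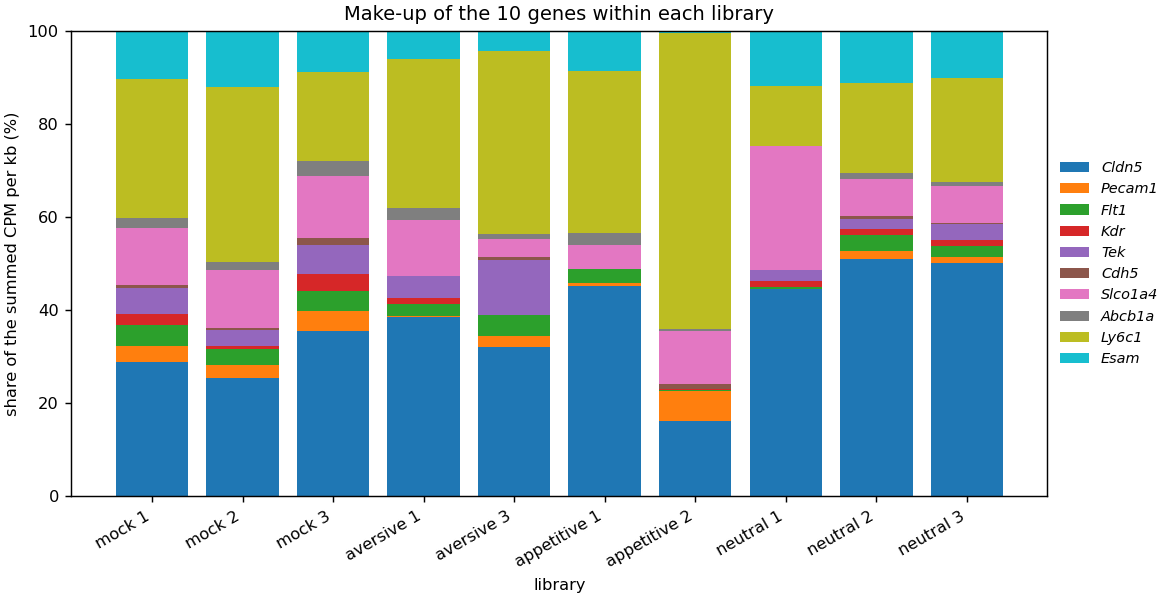
Share of each of the 10 genes in their summed CPM per kb of exon, as a stacked bar for each library. Cldn5 and Ly6c1 together take the larger part of every bar, and Ly6c1 alone takes 63.7% in appetitive replicate 2.

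The genes varied together in some groups and apart in others. All 10 were higher in mock replicates 2 and 3 than in mock replicate 1, and all 10 were higher in neutral replicate 2 than in neutral replicate 3, and in neutral replicate 3 than in neutral replicate 1. In the aversive group 5 genes were higher in replicate 1 and 5 in replicate 3, with Kdr 26.7-fold higher in replicate 1 and Cdh5 115-fold higher in replicate 3 (2 and 578 counts). In the appetitive group 7 genes were higher in replicate 1 and 3 in replicate 2, with Esam 199-fold higher in replicate 1 and Cdh5 22.8-fold higher in replicate 2 (2 and 68 counts).

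The SD over the 10 genes of the log2 ratio between libraries of a group, computed on CPM + 1, was 0.45 for neutral replicates 2 and 3, 0.48 to 1.01 among mock libraries, 1.19 and 1.29 for neutral replicate 1 against the others, 2.26 in aversive and 3.06 in appetitive libraries. Over the 9626 tested genes with a mean of at least 10 CPM the same SD was 1.31, 0.95 to 1.08, 1.22 and 1.80, 2.59 and 3.34. Genes thus moved apart between the aversive and between the appetitive libraries throughout the transcriptome, and not only among the endothelial genes. These values describe pairs of libraries and carry no test.

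The pattern of the 10 genes over the 10 libraries was compared with that of other genes by Pearson's r on log2(CPM + 1), as a description without a test, since all points share library and depth. Each gene's r with the mean of the other 9 was highest for Flt1 (0.93), Abcb1a (0.90), Slco1a4 (0.90) and Cldn5 (0.88), and lowest for Kdr (0.71), Tek (0.69) and Cdh5 (0.64). The tested genes outside the 10 with the highest r to their mean were Prom1 (0.96), Ltbp4 (0.95), Slc40a1 (0.94), Plat (0.93) and Itgb1 (0.93). The median r was 0.83 over 20 other genes of endothelial identity, 0.66 over 16 other barrier transporters, 0.50 over 16 genes of the barrier Wnt pathway, 0.45 over 14 other junction proteins and 0.44 over 13 VEGF and angiopoietin genes. Over markers of other cells it was 0.58 for mural cells (12 genes), 0.54 for red cells (5), 0.47 for microglia (10), 0.41 for fibroblasts (8), 0.30 for neurons (10), 0.23 for leukocytes (7), 0.19 for astrocytes (10), 0.06 for oligodendrocytes (10) and -0.02 for the choroid plexus (8), and over all 19754 tested genes it was 0.11.

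The design asks whether either salient experience differs from the neutral one, whether the 2 salient experiences differ from each other, and whether tagged cells differ from mock. Each was tested with the quasi-likelihood test of edgeR in 1 model of the 4 groups, and a gene was called at a Benjamini-Hochberg adjusted p under 0.05 over 19754 genes. Comparisons that use the same group share its libraries. The spread was estimated over all 4 groups, so libraries outside a comparison also enter its p-values. Spearman's r between libraries of a group was 0.91 to 0.92 in mock and 0.77 to 0.86 in neutral. It was 0.64 in aversive and 0.61 in appetitive libraries. How far this difference between groups bears on the calls was not tested.

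Appetitive and neutral libraries were compared first. Tek was lower in appetitive cells, at a log2 fold change of -7.69 (SE 1.64, edgeR adjusted p = 0.0275), and was the only one of the 10 genes called, against 6.17% of all tested genes in either direction and 5.23% called lower. Kdr missed the threshold at a log2 fold change of -6.71 (SE 1.99, with an adjusted p of 0.0643). The other 8 genes had log2 fold changes from -2.91 for Cdh5 to 0.29 for Abcb1a. The ranges of the groups did not overlap for Tek and Kdr, 2 of 10, where 27.2% of all tested genes lay below neutral in every appetitive library. The median log2 fold change was -1.14 over the 10 genes and -0.91 over all tested genes. The call of Tek was lost without any 1 mock library (edgeR adjusted p = 0.0556 to 0.0618), without either appetitive library and without neutral replicate 3 (0.0683). With the 2 groups fitted alone the edgeR adjusted p of Tek was 0.105, and with the replicate block it was 0.664. The log2 fold change of Tek stayed between -8.59 and -6.08 over all alternatives.

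Appetitive libraries were next compared with aversive libraries, which were made with the same kit. Tek was again the only gene called, at a log2 fold change of -8.62 (SE 1.72, edgeR adjusted p = 0.0370), where 1.80% of all tested genes were called and 1.69% were called lower. For Kdr it was -5.36 (SE 1.90, edgeR adjusted p = 0.168), and without aversive replicate 1 it was -1.68. Tek and Kdr were again the genes whose ranges did not overlap, against 20.1% of all tested genes below. For the other 8 genes the log2 fold changes ran from -1.65 (SE 2.60) for Cdh5 to 0.52 (SE 1.74) for Esam. The median over the 10 genes was -0.26, and that over all tested genes -0.48. Tek kept its call without either aversive library and lost it without any 1 mock, appetitive or neutral library. The edgeR adjusted p was 0.0523 to 0.0867 without a mock or neutral library. With the 2 groups fitted alone the call of Tek was also lost, at an edgeR adjusted p of 0.711. The log2 fold change of Tek lay between -9.54 and -7.98 over all alternatives.

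Against mock, each of the 10 genes had a negative log2 fold change in appetitive libraries, as did 12641 of all 19754 tested genes. The median was -1.65 over the 10 genes and -1.45 over all tested genes. Tek was the gene called (log2 fold change -8.55, SE 1.70, adjusted p = 0.0363 by edgeR), against 1.98% of all tested genes called and 1.96% called lower. Kdr stood at -7.24 on the same scale (SE 2.04, edgeR adjusted p = 0.0844) and was not called. The levels of Tek, Kdr, Cdh5 and Pecam1 did not overlap, 4 of 10, against 38.9% of all tested genes below mock. Tek lost its call without any 1 mock, appetitive or neutral library (edgeR adjusted p = 0.0593 to 0.109 without a mock or neutral library). With the 2 groups fitted alone it kept the call (0.0417), and with the replicate block it lost it (0.175). The log2 fold change of Tek lay between -9.53 and -8.26 over all alternatives.

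In the 3 remaining comparisons 0 of the 10 genes were called by edgeR and 0 had an unadjusted p under 0.05, and DESeq2 also called 0, where it called 15.8%, 8.09% and 7.76% of all tested genes in aversive against neutral, aversive against mock and neutral against mock. The ranges of the groups overlapped for all 10 genes, where 33.7%, 36.1% and 32.0% of all tested genes lay wholly above or below in aversive against neutral, aversive against mock and neutral against mock. In aversive against neutral libraries 0.0405% of all tested genes were called, in aversive against mock 0%, and in neutral against mock 0.0861%, while 19.1%, 9.96% and 13.5% had an unadjusted p under 0.05. Log2 fold changes ran from -1.74 (Esam) to 0.93 (Tek) in aversive against neutral, from -2.14 (Pecam1) to 0.07 (Tek) in aversive against mock, and from -1.23 (Pecam1) to 0.72 (Cldn5) in neutral against mock, with SEs of 0.93 to 2.48. Differences of several-fold were therefore within the error of these fits, and a gene that was not called was not shown to be equal.

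**Figure D3:**
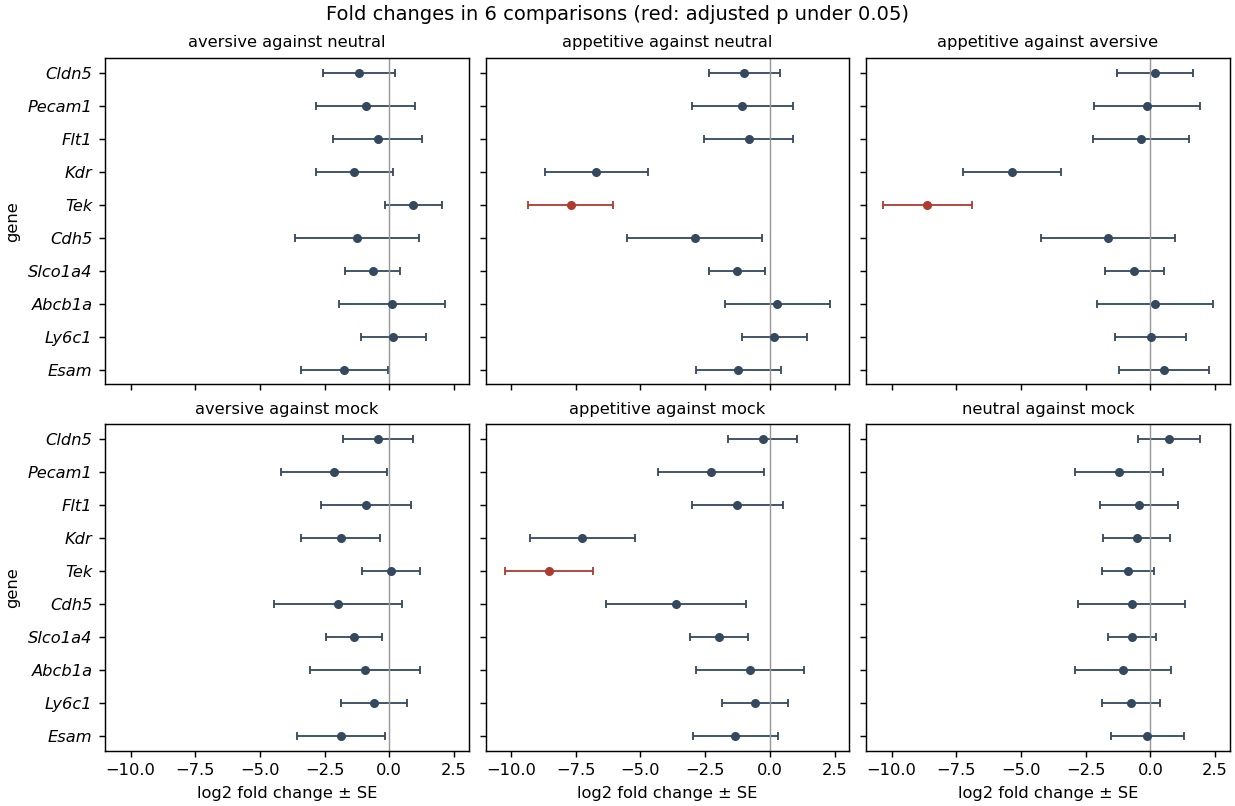
Log2 fold change with its SE (bars) of the 10 genes in each of the 6 comparisons by edgeR, first-named group against second. Tek, in red for an adjusted p under 0.05, stands at -7.69, -8.62 and -8.55 in the appetitive comparisons, Kdr lies next to it there, and the other 8 genes lie within 2 SE of 0.

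The order of the group means was mock highest for 8 genes, neutral highest for Cldn5 and aversive highest for Tek. The lowest mean was appetitive for 6 genes, aversive for Cldn5 and Esam and neutral for Abcb1a and Ly6c1. Such orders were not counted over all tested genes. Of the neighbours in these orders, appetitive and neutral were separated by the test for Tek. No other pair of neighbours was called, and of those pairs the ranges were apart for Kdr in appetitive and aversive libraries.

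The ligands of Tek and Kdr, named for their role and chosen after their values were seen, varied as follows. Angpt1, the activating ligand of TIE2, had 0 counts in both appetitive libraries, and elsewhere stood at 0.016 CPM in neutral replicate 1 and at 1.46 to 14.6 CPM in the other 7 (adjusted p = 0.0937 to 0.161 in the appetitive comparisons by edgeR). Angpt2, its context-dependent counterpart, stood at 119 CPM in appetitive replicate 1 and 0 CPM in appetitive replicate 2, and at 0.040 to 63.8 CPM elsewhere. Vegfa, the ligand of Kdr and Flt1, stood at 0.70 and 80.3 CPM in appetitive and 32.3 to 121 CPM in the other libraries.

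Of the wider family of receptors and ligands, 13 genes, 1 was called lower in each appetitive comparison, Pgf, which encodes placental growth factor, a ligand of the Flt1 receptor. Pgf had 0 counts in both appetitive libraries, against 33.9 and 38.1 CPM in aversive, 6.81, 83.1 and 39.8 CPM in neutral and between 4.74 and 5.05 CPM in mock. Its bounds are the mean of the other group over the higher appetitive floor of 3 counts, 0.235 CPM. By this measure Pgf was at least 184-fold lower than the neutral mean (adjusted p = 0.0185 by edgeR). It was at least 154-fold lower than the aversive mean (0.0311) and at least 21.0-fold lower than the mock mean (0.0471). These bounds hold for the means and not for every library. The call against neutral was lost without neutral replicate 3 (adjusted p = 0.0582 by edgeR), the one against aversive without any 1 mock or neutral library (0.0523 to 0.0867) and the one against mock without any 1 mock, appetitive or neutral library (0.0545 to 0.121). Tie1, the sister receptor of Tek, was not called in any comparison: it stood at 136 and 0.21 CPM in appetitive, 0.30 and 0.92 CPM in aversive, 1.29, 112 and 65.3 CPM in neutral and 29.1, 132 and 102 CPM in mock libraries. Tie1 was thus low together with Tek in appetitive replicate 2 and neutral replicate 1, but high in appetitive replicate 1 and low in the aversive libraries, where Tek was the reverse. Flt4, the VEGF receptor of lymphatic endothelium, was at most 0.10 CPM in the aversive and appetitive libraries and at most 23.3 CPM elsewhere. Ptprb, a phosphatase that acts on TIE2 and the gene of this list with the highest mean, stood at 287 and 57.3 CPM in appetitive and from 0 to 325 CPM in the other libraries.

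Among 20 other genes of endothelial identity, Robo4, a receptor of the vessel wall, was called lower in appetitive than in neutral and mock libraries (adjusted p = 0.0260 and 0.0382 by edgeR), at 0.078 and 0.21 CPM (1 to 4 counts) against 18.5 to 80.5 and 18.1 to 104 CPM. The first of these calls was lost without any 1 mock library, appetitive replicate 1 or neutral replicate 3 (adjusted p = 0.0551 to 0.0666 by edgeR), and the second without any 1 mock or neutral library or appetitive replicate 1 (0.0607 to 0.110). Itm2a, the highest of this list, stood at 396, 3329.9 and 866 CPM in mock, 832 and 259 CPM in aversive, 1532 and 297 CPM in appetitive and 60.6, 1769 and 785 CPM in neutral libraries, and was not called. The other 19 genes were not called in any comparison, and the median log2 fold change of the 20 was -1.26 in appetitive against neutral, -0.41 against aversive and -0.95 against mock.

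Among 16 other barrier transporters, Abcc4, an efflux pump, was called lower in all 3 appetitive comparisons (adjusted p = 0.0221, 0.0361 and 0.0333 by edgeR against neutral, aversive and mock). It had 0 counts in both appetitive libraries, against means of 28.3 CPM in neutral, 25.2 CPM in aversive and 47.3 CPM in mock. Set against these means, Abcc4 was at least 121-fold, 107-fold and 202-fold lower, in this order. The call against neutral was lost without any 1 mock library or neutral replicate 3 (adjusted p = 0.0540 to 0.0643 by edgeR), and the calls against aversive and mock without any 1 mock or neutral library, the former also without appetitive replicate 1 (0.0502 to 0.0923 and 0.0593 to 0.101). Pltp, a lipid transfer protein and the highest of this list, stood at 628 and 7.06 CPM in the appetitive and 227 to 1112 CPM in the other libraries, and was not called.

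Of 14 other junction proteins, Cgn, cingulin of tight junctions, and Cldn12, another claudin, were called lower in appetitive than in neutral libraries (adjusted p = 0.0365 and 0.0480 by edgeR). Cgn had 0 counts in both appetitive libraries, but it stood at 67.3, 9.71 and 26.4 CPM in neutral and at most 1.41 CPM in the mock and aversive libraries, and the markers of the choroid plexus, an epithelium, were also highest in neutral (21994 to 134140 CPM summed over 8 genes, against 849 to 13969.6 CPM elsewhere). Their part in the result was not tested. Cldn12 had 1 to 2 counts in each appetitive library, against 4.57 to 45.9 CPM in neutral. Ctnnb1, beta-catenin and the highest of this list, stood at 578 and 1.41 CPM in appetitive and 38.7 to 383 CPM in the other libraries, and was not called.

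Of 16 genes of the Wnt pathway, which induces and maintains the barrier, the receptor Fzd6 and the co-receptor Reck were called lower in appetitive than in neutral libraries (adjusted p = 0.0239 and 0.0339 by edgeR) and than in mock libraries (0.0425 and 0.0431). Fzd6 stood at 0 and 0.16 CPM and Reck at 0.078 and 0.21 CPM in the appetitive libraries, against 14.8 to 106 and 13.8 to 25.5 CPM in neutral. Wnt7b, a ligand from neural cells, was called higher in appetitive than in neutral libraries (adjusted p = 0.0318), but stood at 119 CPM in appetitive replicate 1 and 0 CPM in appetitive replicate 2, with at most 0.023 CPM in neutral and 21.9 to 82.5 CPM in mock and aversive libraries. Tspan12, a co-activator of Norrin signalling and the highest of this list, stood at 283 and 0.052 CPM in appetitive and 6.92 to 76.1 CPM elsewhere, and was not called.

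Taking these 5 lists as 77 different genes, 7 were called lower and 1 higher in appetitive against neutral, where 5.23% and 0.937% of all tested genes were, 2 lower against aversive (1.69% of all) and 5 lower against mock (1.96% of all). Each of these 15 calls was lost without at least 1 of the 10 libraries, and without appetitive replicate 1 the log2 fold change of Wnt7b against neutral was -2.06 (adjusted p = 0.741 by edgeR). In aversive against neutral, aversive against mock and neutral against mock, edgeR called 0 of the 77, and 11, 6 and 5 had an unadjusted p under 0.05, where 19.1%, 9.96% and 13.5% of all tested genes did. DESeq2 called 11, 6 and 5, against 15.8%, 8.09% and 7.76% of all genes it tested. Their median log2 fold changes in the appetitive comparisons were -0.92, -0.38 and -1.09, near those of all tested genes (-0.91, -0.48 and -1.45), and -0.92, -0.36 and -1.09 with genes at 0 counts set to their bound.

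Markers of other cell types were summed in the same way. Mural cell markers, 12 genes of pericytes and smooth muscle, stood at 199.7 and 399 CPM in appetitive, 223 and 1167 CPM in aversive, 432 to 1029 CPM in mock and 684 to 7063 CPM in neutral libraries. Both appetitive libraries lay below every mock and neutral library, and aversive spanned the mock range. Of these 12 genes 2, Myh11 of smooth muscle and Ndufa4l2 of pericytes, were called lower in appetitive than in neutral libraries (edgeR adjusted p = 0.0391 and 0.0288). Both calls were lost without any 1 mock library (edgeR adjusted p = 0.0604 to 0.0727). The call of Myh11 was also lost without either appetitive library and without any 1 neutral library (0.0570 to 0.0805). That of Ndufa4l2 was also lost without appetitive replicate 1 and without neutral replicate 2 or 3. Of the other lists, 5 of 8 choroid plexus markers and 1 of 8 fibroblast markers were called lower in this comparison. In the same comparison 4 of 10 astrocyte, 1 of 10 microglia and 2 of 10 neuronal markers were called higher. Of all tested genes, 5.23% were called lower and 0.937% higher. In the neuronal list, however, 6 of 10 genes had a negative log2 fold change, and the median was -1.57. Its 2 calls, Nrgn and Snap25, were lost without any 1 neutral library (edgeR adjusted p = 0.0556 to 0.118). With the 2 groups fitted alone, edgeR called 0 of all tested genes, so all these marker calls were lost. Acta2, of smooth muscle, was the highest of the mural list, at 9.45 to 688 CPM outside the neutral group and 445 to 3133 CPM in it. Red cell markers, 5 genes, reached 2288 CPM in mock (337 at the lowest), 773 CPM in aversive, 628 CPM in appetitive and 59.6 CPM in neutral libraries, so that neutral replicate 2, with 3757 CPM for the 10 endothelial genes, had 59.6 CPM of red cell RNA, 30.6 CPM of it from the globin gene Hbb-bs. The sums over 8 fibroblast markers were 3.75 and 7.01 CPM in appetitive and 61.9 to 138 CPM in the other libraries, and the highest of them, Dcn, ranged from 0 to 91.1 CPM. The part of these cells in the level of Tek was not tested.

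**Figure D4:**
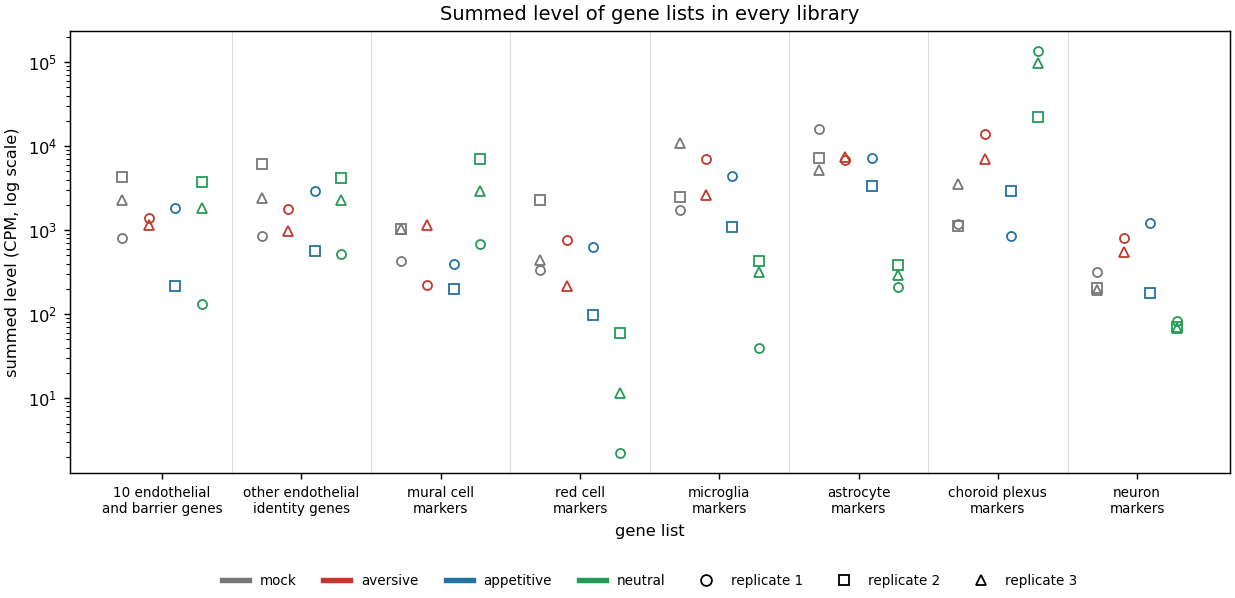
Summed CPM of the 10 genes and of 7 marker lists in every library, on a log axis, with 1 colour for a group and 1 marker shape for a replicate number. The endothelial sums overlap between the groups, while choroid plexus markers are highest and red cell, microglia and astrocyte markers lowest in the neutral libraries.

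Microglia markers, 10 genes, were at 39.7 to 431 CPM in neutral and 1101 to 10769.8 CPM in the other libraries, and astrocyte markers, 10 genes, at 209 to 389 CPM in neutral and 3389 to 16106 CPM elsewhere. Their highest genes were the complement gene C1qb (3.96 to 2118 CPM) and the aldolase gene Aldoc (114 to 5346 CPM). The myelin gene Mbp ranged from 4844 to 642532 CPM, the neuronal gene Snap25 from 15.1 to 577 CPM and the choroid plexus gene Ttr from 847 to 128762 CPM. The leukocyte markers, which bear on Ly6c1, Pecam1 and Esam since leukocytes or platelets also carry them, were at 0.54 to 137 CPM summed over 8 genes, and Ptprc, which marks all leukocytes, was at most 88.5 CPM. The 10 endothelial genes did not show the separation of neutral from the other libraries seen in the microglial, astrocytic and choroid plexus sums.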

How the data were processed

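Reads were mapped by the authors with STAR to mm10 over their first 40 bases and counted per Ensembl gene with featureCounts, without regard to strand. The deposited values are raw counts, and the versions of these tools are not given in the sources used here. Symbols, positions, exon lengths and transcripts were taken from GENCODE M21 (GRCm38), to which 53274 of 53379 identifiers matched, and promoters from RefSeq (GRCm38.p6).

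The analysis used edgeR 4.0.16 in R 4.3.3. After TMM scaling, filterByExpr left 19754 genes for testing, and a single quasi-likelihood model covered the 4 groups and 10 libraries, with a coefficient of variation of 122%. P-values are two-sided and adjusted over all tested genes. SEs were derived from the F statistics. CPM values are TMM-scaled, and groups are given by the sample labels. Depth was 16968588 to 67650693 counts per library.

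The members and gene lists were chosen with earlier results of these data known. Named genes were the 10, their paralogs, up to 4 called genes of each related list, the most abundant gene of each related or marker list, and the 5 genes most like the 10 with a mean of at least 1 CPM. Exceptions are said in the text. Alternatives were DESeq2 1.42.0, other scalings and filters, a fit of 2 groups, a replicate block and leaving out each library. The steps were tested on simulated data. Replicate numbers were not taken as pairs, since correlations of same-numbered libraries ran from -0.076 to 0.20. Libraries of different numbers were not compared in this way, so these values cannot show that pairing was absent.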

Additional observations from a re-analysis of the deposited data

How the results depend on the processing

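The direction of Tek and of Kdr in the appetitive comparisons held in every alternative that tested them, and the calls did not. Of the log2 fold changes of the 10 genes over all comparisons and alternatives, 868 kept their sign and side of the threshold, 27 lost a call (Tek), 12 gained one (Kdr), 73 changed sign without a call and 0 changed sign with one. In appetitive against neutral, 1 of the 10 genes was called, and 2 with library size alone, with no filter on low counts and with DESeq2 (Tek and Kdr each time), where 6.08%, 7.19% and 28.3% of all tested genes were called. It was 0 with at least 10 counts in every library, where neither Tek nor Kdr could be tested, 0 with the 2 groups fitted alone and 0 with the replicate block. In appetitive against aversive it was 1, and 0 with library size alone, 2 with no filter (3.60% of all genes), 0 with at least 10 counts, 2 with DESeq2 (23.3%) and 0 with the groups alone. In appetitive against mock it was 1, and 2 with no filter (3.19%), 0 with at least 10 counts, 2 with DESeq2 (26.1%), 2 with the groups alone (21.8%) and 0 with the replicate block. Leaving out 1 library gave 0 to 2, 0 to 1 and 0 to 2 calls in these comparisons. The other 3 comparisons gave 0 in every alternative. Apart from the filters, whose genes tested differ, the cause of these changes was not tested.

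For the 77 related genes, in alternatives added after seeing the data, the count in aversive against neutral was 0, and 5 with no filter and 11 with DESeq2. In appetitive against neutral it was 8, and 15 with no filter, 0 with at least 10 counts, 27 with DESeq2, 0 with the groups alone and 0 with the replicate block. In appetitive against aversive it was 2, and 13, 0, 20 and 0 with no filter, at least 10 counts, DESeq2 and the groups alone. In aversive against mock it was 0, and 6 with DESeq2. In appetitive against mock it was 5, and 2 with DESeq2's size factors, 3 with library size alone, 13 with no filter, 0 with at least 10 counts, 25 with DESeq2, 19 with the groups alone and 0 with the replicate block. In neutral against mock it was 0, and 2 with no filter and 5 with DESeq2. Leaving out 1 library gave 0 to 2, 0 to 12, 0 to 7, 0, 0 to 10 and 0 to 1, in this order. Over all tested genes DESeq2 called 15.8%, 28.3%, 23.3%, 8.09%, 26.1% and 7.76%, in the same order. Without any 1 mock library, or without neutral replicate 1 or 3, edgeR called 0 of all tested genes in appetitive against aversive and in appetitive against mock. Of the 5 genes most like the 10, 2 to 5 remained without 1 library, also added after seeing the data.

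With library size alone the median log2 fold change of all genes moved from -0.91 to -1.45 in appetitive against neutral, from -0.48 to -0.88 against aversive and from -1.45 to -1.93 against mock. The replicate numbers were not taken as pairs, and appetitive and aversive share 1 number, so no block was fitted there. The main limits are 2 libraries in each salient group, the kit and sequencer of the neutral group, and few counts of Tek and Kdr in appetitive libraries.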
